A study of Mus musculus with 10 samples.

Results

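The genes described here encode the machinery of the S, G2 and M phases of the cell cycle, measured in splenic type 2 conventional dendritic cells (cDC2). The members are the 52 genes of a list of known S and G2/M functions, and 51 of them were measured among 19938 genes: 20 of S phase and 31 of G2 and M phase (G2/M). Ccnb1 was not analysed here. The cells were sorted from spleens of wild-type (WT) mice or of mice carrying CD11c-Cre and floxed Notch2 alleles (CD11c-Cre+ Notch2f/f, called Notch2KO), from mice left untreated or taken 24 hours after an intraperitoneal dose of 200000000 SRBC (sheep red blood cells, used as an antigen). There are 2 arrays of each untreated group and 3 of each SRBC group. CD11c-Cre acts in every cell that expresses CD11c, so other CD11c-positive cells and their precursors can carry the deletion as well. The labels do not say that replicates came from separate mice, so p-values measure only the spread between these arrays.

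A dividing cell first licenses its origins of replication with the MCM helicase, copies its DNA in S phase with polymerases that travel with the clamp PCNA, and then assembles a spindle whose microtubules attach to kinetochores under the watch of the spindle checkpoint. The genes of S phase are driven mainly by E2F factors, and those of G2/M by the MuvB complex with B-MYB and FOXM1, which acts through the CHR element of promoters, often with CCAAT boxes beside it. Conventional dendritic cells of the spleen arise from dividing precursors, a fraction of them is itself in cycle, and Notch2 signalling supports the subset of cDC2 that carries ESAM.

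Pearson r between arrays of a group lay between 0.971 and 0.991 over all genes. WT SRBC 1 (r 0.971 and 0.971 with its group) and Notch2KO SRBC 3 (r 0.978 and 0.975) stood apart from the other arrays of their groups, and counts over the members are given with and without them. The signal of Notch2 itself did not differ between genotypes past the threshold (0.14 ± 0.26 untreated and 0.35 ± 0.21 after SRBC), and since the sources do not give the stretch that Cre deletes, this level is no check of the genotype. Values are log2 intensities, and differences are given ± the standard error (SE) of a limma fit over all 10 arrays. A gene was called when its p, with Benjamini-Hochberg adjustment across the whole table, was below 0.05. An array gives the signal of a bulk sample, in which fewer cells in cycle and less RNA of these genes per cell cannot be told apart.

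Promoters of the members are shown first, and the shares of motifs given below were not set against the expression differences. The 6 printed are those of the genes lower in Notch2KO both without treatment and after SRBC that had an entry in the RefSeq promoter table (build GRCm38.p6), while Mcm4 and Ccna2, also lower in both, had none. Each stretch runs from 130 bases before to 20 bases after the gene's start, 5′ to 3′ on the gene's strand. Capitals mark matches of any of 3 motifs on either strand. The CHR element was searched as TTTGAA and in its other form as TTCGAA, and the box of the NF-Y factor by its letters CCAAT. The E2F core was searched in 4 forms, which were the form TTCCCGC, next to it the form TTCGCGC, then the form written TTGCCGC, and last the form written TTGGCGC. The positions are chr2:127831840-127831989, minus strand for Bub1; chr1:189688067-189688216, minus strand for Cenpf; chr9:61946780-61946929, minus strand for Kif23; chr11:99024170-99024319, minus strand for Top2a; chr12:24708124-24708273, plus strand for Rrm2; and chr2:127133935-127134084, minus strand for Ncaph.
Bub1: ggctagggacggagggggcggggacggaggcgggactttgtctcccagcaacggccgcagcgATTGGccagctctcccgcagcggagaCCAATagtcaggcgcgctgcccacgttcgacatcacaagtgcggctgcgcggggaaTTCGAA
Cenpf: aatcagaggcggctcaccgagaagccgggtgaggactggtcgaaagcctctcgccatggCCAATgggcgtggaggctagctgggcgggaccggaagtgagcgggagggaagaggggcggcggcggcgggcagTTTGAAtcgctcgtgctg
Kif23: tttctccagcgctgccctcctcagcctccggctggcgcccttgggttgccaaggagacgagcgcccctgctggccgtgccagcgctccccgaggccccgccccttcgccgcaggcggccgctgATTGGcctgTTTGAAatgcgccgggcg
Top2a: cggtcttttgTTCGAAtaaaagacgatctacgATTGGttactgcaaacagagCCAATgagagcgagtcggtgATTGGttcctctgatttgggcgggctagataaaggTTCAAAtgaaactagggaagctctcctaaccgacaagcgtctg
Rrm2: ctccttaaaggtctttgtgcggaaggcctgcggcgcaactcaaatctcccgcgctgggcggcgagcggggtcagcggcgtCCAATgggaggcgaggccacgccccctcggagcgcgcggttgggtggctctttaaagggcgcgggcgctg
Ncaph: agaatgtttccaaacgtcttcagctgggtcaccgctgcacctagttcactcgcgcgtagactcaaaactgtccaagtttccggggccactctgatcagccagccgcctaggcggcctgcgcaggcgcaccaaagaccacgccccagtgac

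Bub1, Cenpf and Kif23 each hold a CHR element just after the start and a CCAAT box before it, and in Kif23 these lie a few bases apart. Top2a holds CHR matches at either end of a run of CCAAT matches. The S phase gene Rrm2 holds a CCAAT box alone in these letters, and Ncaph none of the 3 motifs, but each has an E2F core match elsewhere in its window, before the stretch in Rrm2 and after it in Ncaph. Over the whole table, with windows of 300 bases (250 before and 50 after the start), 43 of the 51 measured members were matched. The CHR element was found in 21 of 26 G2/M promoters (80.8%) and 3 of 17 S phase promoters (17.6%), against 19.4% of the 27025 genes in the table. The E2F core went the other way, with 12 of 17 S phase promoters (70.6%) and 6 of 26 of G2/M (23.1%), against 9.7% of all genes. CCAAT boxes were present in 70.6% of S phase and 73.1% of G2/M promoters, against 37.9% of all, and CHR and CCAAT together in 69.2% of G2/M promoters, against 7.7% of all. Matches of different motifs overlapped in 3 members. These are matches of letters in RefSeq windows, and no binding was measured.

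The comparison of untreated mice asked how the genotypes differ without antigen. All 51 members had a fitted difference below 0 in Notch2KO, where 54.4% of all genes did, and 22 were called lower and none higher (2.16% of all genes were called lower and 2.95% higher). The median difference was -0.85 over the members and -0.02 over all genes. G2/M genes lay lower, with 16 of 31 called and a median of -1.12, while 6 of 20 S phase genes were called with a median of -0.74. The mean log2 intensity of the 51 members was 6.53 and 6.63 in the WT untreated arrays and 5.46 and 5.91 in the Notch2KO untreated arrays. Every WT array lay above every Notch2KO array in that mean, and Notch2KO untreated 1 was the lowest of all 10.

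**Figure D1:**
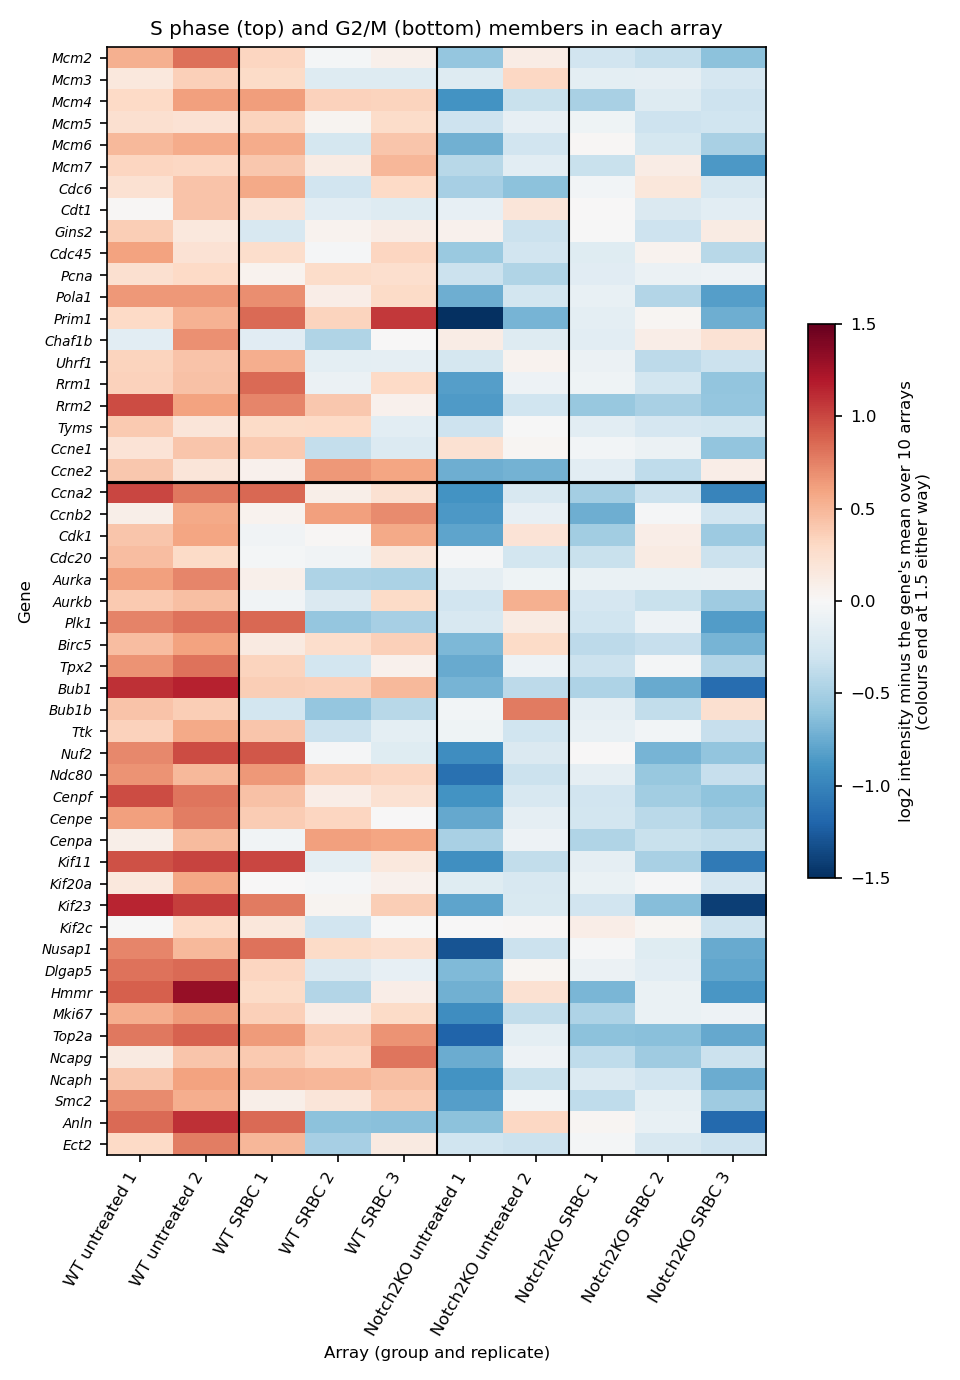
Each row is a measured member, S phase above the horizontal line and G2/M below it, and each column is an array; colour gives the log2 intensity minus the gene's mean over the 10 arrays, with the scale ending at 1.5 either way. WT untreated columns are mostly red and Notch2KO untreated 1 mostly blue, with Bub1 at 6.91 and 6.97 in the former and 5.12 in the latter.

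Among the kinetochore and spindle checkpoint genes 5 of 8 were called lower (median -1.21). Bub1, the kinase that recruits checkpoint proteins to unattached kinetochores, read 6.91 and 6.97 in WT untreated, 6.19, 6.17 and 6.31 in WT SRBC, 5.12 and 5.43 in Notch2KO untreated, and 5.35, 5.06 and 4.67 in Notch2KO SRBC. Every Notch2KO array was below every WT array, and the WT SRBC arrays sat between the WT untreated arrays and the rest. The untreated difference was -1.66 ± 0.22 (3.16-fold lower, adjusted p = 0.000868), the largest among the members. Cenpf, a large coiled-coil protein of the outer kinetochore, read 6.30 and 6.12 in WT untreated, 5.76, 5.42 and 5.55 in WT SRBC, 4.42 and 5.08 in Notch2KO untreated, and 5.03, 4.80 and 4.71 in Notch2KO SRBC. The genotypes did not overlap, and the Notch2KO untreated arrays lay further from each other than the arrays of any other group (difference -1.46 ± 0.22, adjusted p = 0.00227).

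Nuf2 (-1.42 ± 0.37, adjusted p = 0.0491) and Ndc80 (-1.29 ± 0.26, adjusted p = 0.0143), partners in the complex that grips microtubules, were also called, as was the kinetochore motor Cenpe (-1.13 ± 0.22, adjusted p = 0.0108). Nuf2 read 5.98 and 6.24 in WT untreated and 4.33 and 5.05 in Notch2KO untreated. Its WT SRBC arrays spread from 5.08 to 6.2 and met the Notch2KO range. The other 3 members of the group were not called: Cenpa, the histone that marks centromeres (-0.57 ± 0.26), the checkpoint kinase Ttk (-0.64 ± 0.22) and Bub1b, which encodes the checkpoint protein BubR1 (-0.02 ± 0.28). Bub1b read 6.91 and 6.85 in WT untreated and 6.44 and 7.26 in Notch2KO untreated, so a Notch2KO array was the highest of the 4.

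Of the kinesins and spindle proteins 5 of 7 were called lower (median -1.34). Kif23, a motor of the central spindle needed for cytokinesis, read 7.69 and 7.58 in WT untreated, 7.32, 6.58 and 6.91 in WT SRBC, 5.75 and 6.31 in Notch2KO untreated, and 6.25, 5.90 and 5.13 in Notch2KO SRBC. All WT arrays were above all Notch2KO arrays, and the 3 arrays of each SRBC group differed widely (untreated difference -1.61 ± 0.35, adjusted p = 0.0214). Kif11, the kinesin that pushes spindle poles apart, read 7.40 and 7.46 in WT untreated and 5.53 and 6.08 in Notch2KO untreated (-1.63 ± 0.37, 3.09-fold lower, adjusted p = 0.0286). Nusap1 (-1.41 ± 0.33), Hmmr (-1.34 ± 0.34) and Dlgap5 (-1.15 ± 0.28), which bind spindle microtubules, were called as well. Kif20a, another central spindle motor (-0.58 ± 0.16, adjusted p = 0.0700), and the microtubule depolymerase Kif2c (-0.14 ± 0.18) were not.

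Genes of chromosome structure had 4 of 5 members called lower (median -1.12). Top2a, the topoisomerase that untangles replicated DNA, read 8.45 and 8.55 in WT untreated, 8.30, 8.04 and 8.34 in WT SRBC, 6.46 and 7.51 in Notch2KO untreated, and 7.05, 7.03 and 6.89 in Notch2KO SRBC. The genotypes were separate, and most of the spread lay between the Notch2KO untreated arrays (difference -1.51 ± 0.29, 2.85-fold lower, adjusted p = 0.0105). A second, dimmer probe set of Top2a did not show the difference (4.31 and 4.12 in WT untreated, 4.88 and 3.82 in Notch2KO untreated). It read below the median level of all genes (5.06) in every array. With the mean of both probe sets Top2a was no longer called in untreated mice.

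Mki67, which encodes the Ki-67 protein that coats mitotic chromosomes and serves as a marker of cycling cells, read 8.36 and 8.45 in WT untreated, 8.17, 7.93 and 8.10 in WT SRBC, 6.88 and 7.45 in Notch2KO untreated, and 7.35, 7.72 and 7.74 in Notch2KO SRBC. It was lower in all Notch2KO arrays than in any WT array, although the nearest arrays differed by only 0.19 (untreated difference -1.24 ± 0.24, adjusted p = 0.00993). Ncaph, the condensin subunit that bridges the SMC heads, was lower by a similar margin in both comparisons of genotype (untreated -1.12 ± 0.22, adjusted p = 0.0128). Smc2, its ATPase partner, was called (-1.06 ± 0.26), and the condensin subunit Ncapg was not (-0.69 ± 0.24, adjusted p = 0.172).

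**Figure D2:**
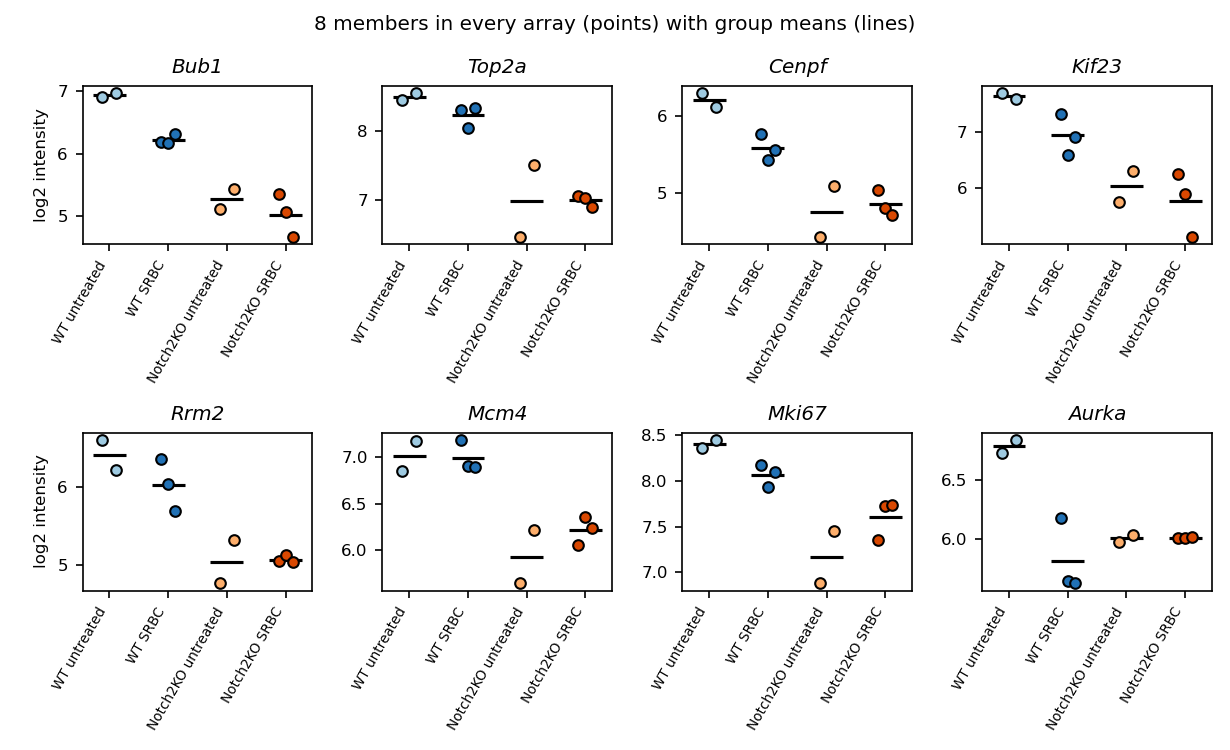
Each panel shows the log2 intensity of 1 member in every array (points) with the mean of each group (lines); the vertical axes differ between panels and do not start at 0. In 7 of the panels every Notch2KO point lies below every WT point, and in Aurka only the WT untreated points stand clear, at 6.73 and 6.84.

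The remaining G2/M groups had fewer calls. Among the cyclins, Cdk1 and Cdc20, 1 of 4 was called: Ccna2, the cyclin A of S phase and G2, read 8.04 and 7.83 in WT untreated and 6.14 and 6.80 in Notch2KO untreated (-1.46 ± 0.32, adjusted p = 0.0204). Neither group came near the other. Cyclin B2 (Ccnb2, -0.82 ± 0.33), the mitotic kinase Cdk1 (-0.80 ± 0.33) and Cdc20, which activates the anaphase-promoting complex (-0.52 ± 0.19), did not pass. Among mitotic kinases and the passenger complex only Tpx2, the activator of Aurora A, was called (-1.17 ± 0.25, adjusted p = 0.0190). Aurora A itself (Aurka, -0.77 ± 0.20) had an adjusted p of 0.0525, and Plk1 (-0.84 ± 0.40), Birc5, which encodes survivin (-0.72 ± 0.28), and Aurkb (-0.30 ± 0.26) lay further from the threshold. The cytokinesis genes Anln (-1.13 ± 0.51), an actin-binding scaffold, and Ect2 (-0.84 ± 0.27), a RhoA activator, were not called.

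In S phase, the calls fell on the fork, on nucleotide supply, on the helicase and on cyclin E. Rrm2, the regulatory subunit of ribonucleotide reductase, read 6.6 and 6.22 in WT untreated, 6.35, 6.03 and 5.69 in WT SRBC, 4.77 and 5.32 in Notch2KO untreated, and 5.05, 5.13 and 5.04 in Notch2KO SRBC. The Notch2KO SRBC arrays were nearly equal, and no Notch2KO array reached the lowest WT array (untreated difference -1.36 ± 0.24, 2.56-fold lower, adjusted p = 0.00704). Its partner Rrm1 (-0.85 ± 0.32) and the thymidylate synthase Tyms (-0.45 ± 0.21) were not called.

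At the fork 3 of 5 were called. Prim1, the primase, read 6.47 and 6.69 in WT untreated and 4.65 and 5.47 in Notch2KO untreated (-1.52 ± 0.33, adjusted p = 0.0214), and Pola1, the polymerase alpha subunit it works with, read 6.85 and 6.85 against 5.46 and 5.92 (-1.16 ± 0.27, adjusted p = 0.0290). In both the WT arrays agreed more closely than the Notch2KO arrays. The clamp Pcna was lower by less (-0.65 ± 0.16, 1.57-fold, adjusted p = 0.0351), and its second probe set gave the same -0.65. The levels of both probe sets were nearly equal in every array, so the second may not be an independent reading. The histone chaperone subunit Chaf1b (-0.30 ± 0.26) and Uhrf1, which guides DNA methylation to new strands (-0.48 ± 0.25), were not called.

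Of the 6 MCM helicase subunits Mcm4 alone was called. It read 6.85 and 7.17 in WT untreated, 7.18, 6.90 and 6.89 in WT SRBC, 5.65 and 6.22 in Notch2KO untreated, and 6.06, 6.36 and 6.24 in Notch2KO SRBC. The WT groups overlapped, and both Notch2KO groups lay below them (untreated difference -1.07 ± 0.23, adjusted p = 0.0192). Mcm2 (-0.92 ± 0.24, adjusted p = 0.0553) and Mcm6 (-1.02 ± 0.28, adjusted p = 0.0687) were near the threshold, and Mcm7 (-0.61 ± 0.27), Mcm5 (-0.45 ± 0.18) and Mcm3 (-0.21 ± 0.23) were further from it. None of the 4 genes of origin licensing and firing was called: Cdc6 (-0.88 ± 0.24), Cdc45 (-0.84 ± 0.22), Gins2 (-0.39 ± 0.23) and Cdt1 (-0.21 ± 0.20). Cyclin E2 (Ccne2) was lower (-1.01 ± 0.22, adjusted p = 0.0222), and cyclin E1 (Ccne1) was not called (-0.18 ± 0.25).

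Groups of 2 arrays leave this comparison open to each of its 4 arrays. In 44 of the 51 members the untreated groups did not overlap and Notch2KO was lower (26.8% of all genes did the same), and in none was it higher (22%). Leaving out WT untreated 1, WT untreated 2 or Notch2KO untreated 1 ended most of the calls of members, while most held without Notch2KO untreated 2. Fewer of all genes were called in each of these 4 fits as well. With 1 array left in a group, the median of the members was -0.98, -0.80, -0.72 and -1.20 in that order. Over all genes it stayed between -0.034 and -0.008. Bub1 and Cenpf were called in all of these. Notch2KO untreated 1 was below Notch2KO untreated 2 in 42 members (82.4%, against 50.6% of all genes). The call of Pcna also ended with arrays centred on their median, that of Hmmr without a mean-variance trend, and that of Nuf2 under 5 alternatives.

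**Figure D3:**
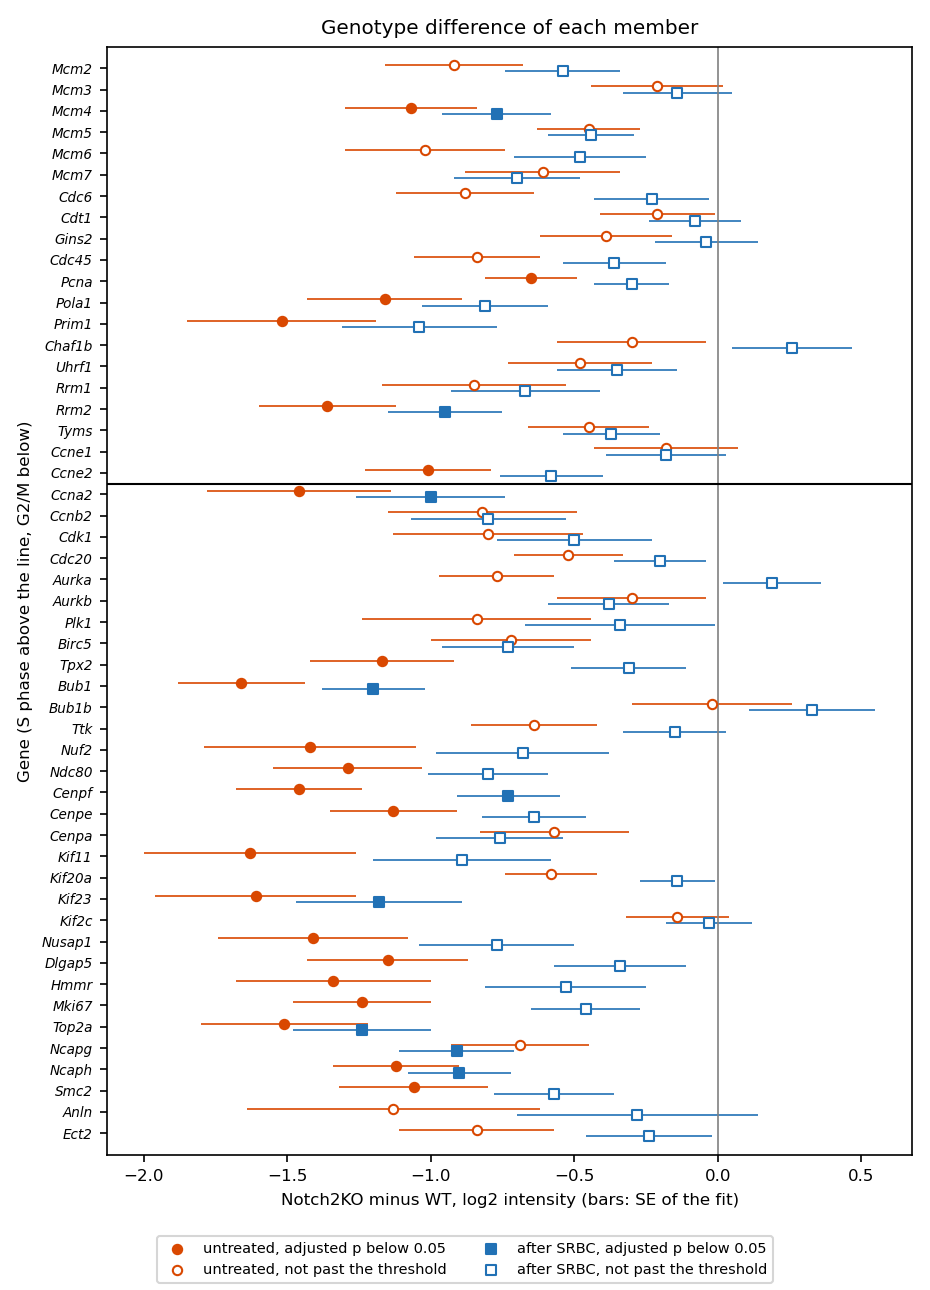
For each member, the horizontal axis gives the fitted log2 intensity of Notch2KO minus WT without treatment (circles) and after SRBC (squares), with bars for the SE of the fit and filled symbols for an adjusted p below 0.05. All 51 circles and 48 of the squares lie left of 0, and for 45 members the circle lies further left than the square.

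After SRBC the genotype difference is taken between the other 6 arrays, while its SE, like that of every comparison, comes from the spread within all 4 groups, so the calls are not independent of the untreated arrays. Here 9 members were called lower and none higher (1.96% of all genes were called lower and 3.36% higher), 48 of 51 had a difference below 0 (54.1% of all genes) and the median was -0.50, against -0.02 over all genes. The groups did not overlap, with Notch2KO lower, in 25 members (10.4% of all genes), and with Notch2KO higher in none (9.96%). The 9 were Mcm4 and Rrm2 of S phase and Bub1, Ccna2, Cenpf, Kif23, Top2a, Ncaph and Ncapg of G2/M. Of them 8 were also called in untreated mice, which is 36.4% of the untreated calls and 88.9% of those after SRBC.

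From the arrays given above, Top2a differed by -1.24 ± 0.24 after SRBC (2.35-fold lower, adjusted p = 0.0111), Bub1 by -1.20 ± 0.18 (2.29-fold, adjusted p = 0.00216) and Kif23 by -1.18 ± 0.29 (adjusted p = 0.0361). Rrm2 (-0.95 ± 0.20, adjusted p = 0.0175), Mcm4 (-0.77 ± 0.19, adjusted p = 0.0362), Cenpf (-0.73 ± 0.18, adjusted p = 0.0385) and Ccna2 (-1.0 ± 0.26, adjusted p = 0.0487) followed. Ncaph read 5.98, 5.97 and 5.92 in WT SRBC and 5.27, 5.18 and 4.73 in Notch2KO SRBC, after 5.88 and 6.08 in WT untreated and 4.57 and 5.14 in Notch2KO untreated. Its WT arrays barely moved with SRBC, and the genotypes were apart in both states (-0.90 ± 0.18, adjusted p = 0.0152).

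Ncapg was the member called after SRBC alone. It read 6.31, 6.23 and 6.72 in WT SRBC and 5.54, 5.38 and 5.60 in Notch2KO SRBC, after 6.05 and 6.34 in WT untreated and 5.18 and 5.84 in Notch2KO untreated. All WT arrays exceeded all Notch2KO arrays, and the untreated Notch2KO arrays spread most (after SRBC -0.91 ± 0.20, adjusted p = 0.0214). Prim1 (-1.04 ± 0.27, adjusted p = 0.0505), Ndc80 (-0.80 ± 0.21, adjusted p = 0.0562) and Pola1 (-0.81 ± 0.22, adjusted p = 0.0568) lay just outside the threshold. Mki67 was not called (-0.46 ± 0.19, adjusted p = 0.236), and 3 members had values above 0: Bub1b (0.33 ± 0.22), Chaf1b (0.26 ± 0.21) and Aurka (0.19 ± 0.17).

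Without WT SRBC 1 and Notch2KO SRBC 3 together, 8 members were called after SRBC, 5 of them among the 9, and the median difference was -0.33. Of all genes 11.9% were called in that fit, against 5.32% with all arrays, so the members stood out less from the rest there. Mcm4, Ccna2, Cenpf and Kif23 lost their calls there, and Ccne2, Ccnb2 and Cenpa gained one. The number called was 5 without WT untreated 1 or WT untreated 2, and also without WT SRBC 2, Notch2KO SRBC 1 or Notch2KO SRBC 3. It was 4 without WT SRBC 3 or Notch2KO SRBC 2, 7 without WT SRBC 1, and 13, all 9 included, without Notch2KO untreated 1 or Notch2KO untreated 2. Bub1 and Top2a were called whichever array was left out.

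Over both states together, every Notch2KO array was below every WT array in 22 of the 51 members (43.1%), which holds for 3.04% of all genes, and the reverse held for none of them (4.43% of all genes). These were 7 S phase genes (Mcm4, Mcm5, Mcm7, Pcna, Pola1, Prim1 and Rrm2) and 15 of G2/M. The lowest WT array exceeded the highest Notch2KO array by most in Bub1 (0.74), followed by Ncaph (0.61), Top2a (0.53) and Mcm4 (0.49). In Cenpa and Mcm7 the gap was 0.02 and 0.01, and in Kif20a it was below the second decimal.

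**Figure D4:**
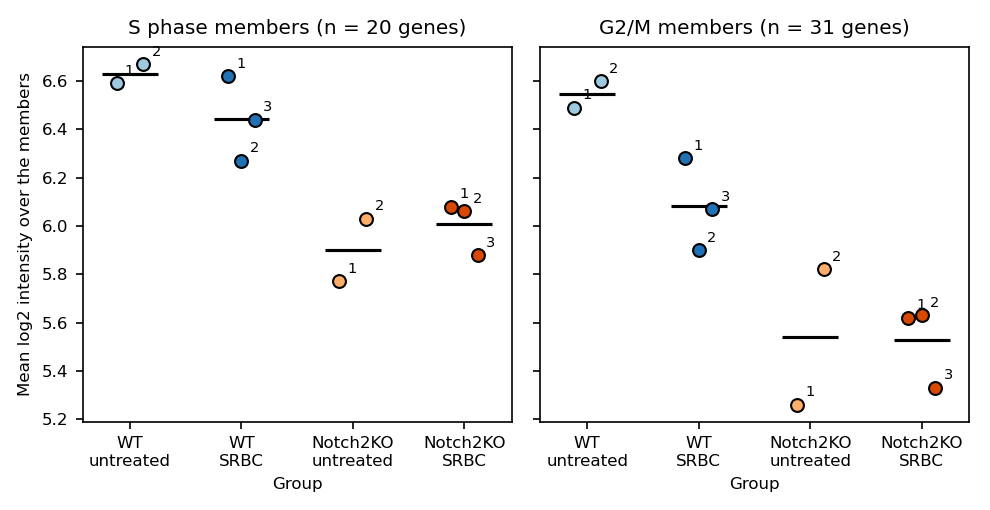
Mean log2 intensity of the 20 S phase members (left) and the 31 G2/M members (right) in each array, numbered by replicate, with lines at the group means; the vertical axis does not start at 0. WT arrays lie at 6.27 or above for S phase and Notch2KO arrays at 6.08 or below, and for G2/M the lowest WT array (5.90) is close to the highest Notch2KO array (5.82).

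The response of WT cells to SRBC was smaller, and members were called at about the share of all genes called lower. This comparison shares the WT untreated arrays with the untreated genotype comparison. Of the 51 members 45 had a difference below 0 (45.6% of all genes did), with a median of -0.33 against 0.02 over all genes. Of them 1 was called lower (2.0%) and none higher, against 1.97% and 1.82% of all genes (3.79% in either direction). The groups did not overlap, with SRBC lower, in 19 members, 17 of them of G2/M (15.7% of all genes), and with SRBC higher in none (17.8%). Median differences were -0.45 for G2/M and -0.25 for S phase.

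The member called was Aurka, the kinase that matures spindle poles. It read 6.73 and 6.84 in WT untreated, 6.18, 5.65 and 5.63 in WT SRBC, 5.98 and 6.04 in Notch2KO untreated, and 6.01, 6.01 and 6.02 in Notch2KO SRBC. The WT untreated arrays were above all others, while the Notch2KO arrays hardly differed whatever the treatment (WT response -0.96 ± 0.18, 1.95-fold lower, adjusted p = 0.0165). The call ended without WT untreated 1, WT untreated 2, WT SRBC 2 or WT SRBC 3, and with only the groups compared in the fit. Hmmr (-1.11 ± 0.31, adjusted p = 0.0771), Bub1 (-0.71 ± 0.20, adjusted p = 0.0751), Bub1b (-0.82 ± 0.25, adjusted p = 0.106) and Dlgap5 (-0.83 ± 0.26, adjusted p = 0.109) came next.

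WT SRBC 1 was above both other WT SRBC arrays in 32 members (62.7%, against 42% of all genes). The actin scaffold Anln read 5.92 and 6.16 in WT untreated, then 5.91, 4.45 and 4.44 in WT SRBC. WT SRBC 1 was level with the untreated arrays there, and the other SRBC arrays were far below (-1.11 ± 0.46, adjusted p = 0.250). Plk1 showed the same split, with 5.22 in WT SRBC 1 against 3.78 and 3.86, and 5.11 and 5.17 in WT untreated. Without WT SRBC 1, 6 members were called lower: Aurka, Plk1, Ttk, Dlgap5, Hmmr and Anln. Without Notch2KO SRBC 3 as well 15 were, of which Ccne1 was the S phase gene, and with array weights 10 were. Calls over all genes in either direction rose in these fits too. They were 6.68%, 11.5% and 9.46% in that order, against 3.79% in the fit of all arrays without weights.

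Markers of other cells and of the ESAM subset also moved in this comparison. Among macrophage markers C1qc (1.72 ± 0.31, adjusted p = 0.0127), Vcam1 (1.75 ± 0.25, adjusted p = 0.00347) and Spic (2.11 ± 0.42, adjusted p = 0.0211) rose, 3 of 9 on the list. The neutrophil gene S100a8 rose (2.85 ± 0.46, adjusted p = 0.00658), 1 of 7 on its list, and it rose in Notch2KO too (3.07 ± 0.46, adjusted p = 0.0263). Among the 6 ESAM-high markers Cd4 (-1.32 ± 0.20, adjusted p = 0.00508) and Dtx1 (-1.43 ± 0.30, adjusted p = 0.0250) fell. Each of these WT calls ended when WT untreated 1 was left out, as did all but those of Vcam1 and Dtx1 without WT untreated 2. The call of S100a8 in Notch2KO held in 5 of the 10 fits with 1 array left out. Their part in the WT difference of the members was not tested.

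In Notch2KO cells the members showed no shared shift after SRBC. No member was called by limma (0.306% of all genes were called in either direction), 3 had an unadjusted p below 0.05, and 23 of 51 were below 0 with a median of 0.01 against 0.03 over all genes. The groups did not overlap, with SRBC higher, in 3 members (16.1% of all genes) and, with SRBC lower, in 1 (12.2% of all genes), both below the background share. Ccne2 read 4.75 and 4.78 in Notch2KO untreated and 5.32, 5.10 and 5.58 in Notch2KO SRBC (0.57 ± 0.20, adjusted p = 0.355), and Cdc6 (0.52 ± 0.22) and Pcna (0.28 ± 0.14) also had all SRBC arrays higher. Ccne1 had all SRBC arrays lower (-0.37 ± 0.23). The median, close to 0, was -0.22 when Notch2KO untreated 1 was left out and 0.21 when Notch2KO untreated 2 was. Notch2KO SRBC 3 was below both others of its group in 34 members (66.7%, against 42.8% of all genes).

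Whether the responses differed between genotypes was tested by the interaction, which subtracts the WT response from that of Notch2KO. It was above 0 in 45 of 51 members and below 0 in the others (48.8% of all genes were below 0), with a median of 0.43 against 0.01 over all genes, and limma called none (0.0201% of all genes were called) while 5 had an unadjusted p below 0.05. Aurka had the largest value (0.96 ± 0.26, adjusted p = 0.381). A response called in WT and in no Notch2KO member is therefore not shown to differ. The median was 0.14 without Notch2KO untreated 1, and without both arrays that stood apart 5 members were called higher: Aurka, Plk1, Kif11, Dlgap5 and Anln. In that last fit 3.03% of all genes were called in either direction.

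Other genes of the cell cycle were taken from lists of 171 entries, of which 164 were measured. Of all genes 2.16% were called lower and 2.95% higher in untreated Notch2KO, and 1.96% and 3.36% after SRBC. In the WT response the shares were 1.97% lower and 1.82% higher. These shares belong beside the counts of every list that follows. Of 70 other mitosis genes 17 were lower in untreated Notch2KO and none higher (median -0.67), and 13 were lower after SRBC (median -0.39). Spag5, a spindle protein (-1.39 ± 0.16, adjusted p = 0.000428), the centriole factor Stil (-1.42 ± 0.19), the kinetochore subunit Cenpk (-1.45 ± 0.22) and lamin B1 (Lmnb1, -1.76 ± 0.28) had the smallest p in untreated mice. After SRBC these were Hmgb2 (-0.87 ± 0.15, adjusted p = 0.00484), a chromatin protein, Cenpn (-1.10 ± 0.19), Spag5 (-0.73 ± 0.13) and Spc25 (-0.99 ± 0.18), which were also called without both arrays that stood apart (-0.94, -1.30, -0.67 and -1.03). In the WT response 3 of these genes were lower and 3 higher. Stil fell (-1.07 ± 0.17, adjusted p = 0.00658) and Depdc1a fell (-1.13 ± 0.26), whereas the centromere genes Cenpn (1.68 ± 0.22, adjusted p = 0.00239) and Cenpl (1.07 ± 0.22) rose. Of these 4, the call of Cenpn alone held whichever array was left out.

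Of 48 other replication genes 3 were called lower in untreated Notch2KO, as were 2.16% of all genes. They were the checkpoint kinase Chek1 (-1.12 ± 0.24, adjusted p = 0.0179), the dUTPase Dut (-0.99 ± 0.23) and the repair gene Brca1 (-0.79 ± 0.20). After SRBC Dut (-0.80 ± 0.19) and the helicase Blm (-0.73 ± 0.19) were called lower, as were 1.96% of all genes. Dut was no longer called there without both arrays that stood apart (-0.73 ± 0.22, adjusted p = 0.0567), and Blm without Notch2KO SRBC 3 alone (-0.72, adjusted p = 0.0864). With each of the 10 arrays left out in turn, these calls held in only 2 fits for Dut and 4 for Blm. The Blm call also ended without a mean-variance trend and with only the groups compared in the fit. The untreated call of Brca1 held in 3 of those 10 fits. The list's medians were -0.36 and -0.24. In the WT response Rpa2, a subunit of the protein that covers single-stranded DNA, was called lower (-0.95 ± 0.23, adjusted p = 0.0465), as were 1.97% of all genes. The Rpa2 call held in only 4 of the 10 fits with 1 array left out. It also ended with quantile normalization and with the replicate number as a block.

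Of the 6 G1 cyclins and kinases 1 was lower in each genotype comparison. Cyclin D1 (Ccnd1), which carries mitogen signals into G1, read 10.77 and 10.83 in WT untreated, 9.35, 9.14 and 8.89 in WT SRBC, 8.44 and 8.53 in Notch2KO untreated, and 8.45, 8.24 and 7.31 in Notch2KO SRBC. The WT untreated arrays were far above all others, and the genotypes did not overlap in either state. It was lower in untreated Notch2KO (-2.31 ± 0.32, 4.96-fold, adjusted p = 0.00134), lower in Notch2KO after SRBC (-1.13 ± 0.26, adjusted p = 0.0287), and fell in WT with SRBC (-1.67 ± 0.29, adjusted p = 0.0102). The difference after SRBC was -0.78 ± 0.18 without Notch2KO SRBC 3 (adjusted p = 0.0284), -0.67 ± 0.15 without both arrays that stood apart (adjusted p = 0.0145) and -1.02 ± 0.28 without WT SRBC 1, where the call ended (adjusted p = 0.0603). The WT call of Ccnd1 ended when either WT untreated array was left out. Cdk6, a partner of D cyclins, was called higher in WT with SRBC (0.94 ± 0.22, adjusted p = 0.0380). The Cdk6 call held in only 3 of the 10 fits with 1 array left out. It also ended with the replicate number as a block and with only the groups compared in the fit. Cyclins D2 (Ccnd2, -0.17 ± 0.34) and D3 (Ccnd3, 0.14 ± 0.24) were not called between untreated genotypes.

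Of 6 inhibitors of cyclin-dependent kinases the INK4 member Cdkn2c was lower in Notch2KO untreated (-0.87 ± 0.15, adjusted p = 0.00598) and after SRBC (-0.88 ± 0.12, adjusted p = 0.00152), and Cdkn1b, which encodes p27, was not called (-0.72 ± 0.22, adjusted p = 0.104, untreated). Of 22 regulators in the RB, E2F, DREAM and MYC families the brake Rb1 was lower in both (-0.84 ± 0.21, adjusted p = 0.0440, and -1.05 ± 0.17, adjusted p = 0.00423), and the E2F partner Tfdp1 was lower after SRBC (-1.07 ± 0.26, adjusted p = 0.0340, and -1.36 ± 0.24 without both arrays that stood apart). The Tfdp1 call ended without WT SRBC 2, WT SRBC 3, Notch2KO SRBC 1, Notch2KO SRBC 2 or either WT untreated array. It also ended with only the groups compared in the fit. The untreated call of Rb1 ended without WT SRBC 2, WT SRBC 3, Notch2KO SRBC 2 or any untreated array. Its call after SRBC held whichever array was left out. Lin54, the MuvB subunit that binds the CHR element, rose in WT with SRBC (1.21 ± 0.26, adjusted p = 0.0262). That call ended when either WT untreated array was left out. The transcription factors Foxm1 (-0.43 ± 0.20 untreated and -0.52 ± 0.16 after SRBC), Mybl2 (-0.43 ± 0.27 and -0.38 ± 0.22), E2f1 (0.19 ± 0.21 and 0.04 ± 0.17) and Myc (1.12 ± 0.38 and 0.82 ± 0.31) were not called. Of 12 p53 targets and antiproliferative genes Gadd45b, a stress-induced growth arrest gene, was higher in untreated Notch2KO (1.40 ± 0.32, adjusted p = 0.0258), and none was called after SRBC. The Gadd45b call ended when any untreated array was left out.

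Markers of the cells themselves moved with genotype. All 6 markers of ESAM-high cDC2 were lower in untreated Notch2KO and 5 after SRBC, and their summed intensity was 2535 to 2566 in WT untreated, 1071 to 1378 in WT SRBC, 309.6 to 504.4 in Notch2KO untreated and 339.0 to 618.7 in Notch2KO SRBC. All 8 markers of ESAM-low cDC2 were higher in both comparisons, with sums of 673 to 730 in WT untreated, 837 to 1055 in WT SRBC, 11430 to 13940 in Notch2KO untreated and 8498 to 10370 in Notch2KO SRBC. Of the 13 general cDC2 markers, Clec4a4, Cd4 and Esam were lower and Clec10a and Cd209a higher in untreated Notch2KO, and 8 were not called. Itgax, which encodes CD11c, was among these, with group means of 10.14 in WT untreated, 9.49 in WT SRBC, 10.48 in Notch2KO untreated and 9.63 in Notch2KO SRBC. Clec4a4, Cd4 and Esam also stand on the ESAM-high list and Clec10a on the ESAM-low list, so their calls are not separate from those of the subset lists. The cells labelled as cDC2 therefore carry different subset markers in the 2 genotypes, and the part of that difference in the member genes was not tested.

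Markers of other cells that a sort could hold were less even. Of all genes 2.16% were called lower and 2.95% higher untreated, and 1.96% and 3.36% after SRBC. Macrophage markers were higher for 6 of 9 genes in both comparisons, with sums of 729 to 801 in WT untreated, 1388 to 1916 in WT SRBC, 1952 to 2588 in Notch2KO untreated and 2470 to 2999 in Notch2KO SRBC. Monocyte markers were higher for 3 of 5 in both, with Treml4 lower in untreated mice. Ccr2 and Csf1r, among those higher, also stand on the ESAM-low list, so their calls are not separate from those given above. Of 7 type 1 dendritic cell markers 3 were higher in untreated mice (Clec9a, Cadm1 and Naaa) and 3 after SRBC (Tlr3, Cadm1 and Naaa). Of 6 progenitor markers Kit alone was called, lower in untreated Notch2KO (-2.27 ± 0.24, adjusted p = 0.000249) and after SRBC (-1.39 ± 0.20, adjusted p = 0.00177), and the sums were 976 to 1079 in WT untreated, 839 to 934 in WT SRBC, 260.5 to 348.5 in Notch2KO untreated and 377 to 454 in Notch2KO SRBC. In each of the B cell and plasma cell list (Ms4a1), the T cell list (Cd5) and the erythroid list (Tfrc untreated and Car2 after SRBC) 1 marker was lower in each genotype comparison. The plasmacytoid list had Cox6a2 higher in both and the neutrophil list had S100a8 higher after SRBC. That S100a8 call held in 4 of the 10 fits with 1 array left out and under 6 of 11 other alternatives. Of 6 NK cell markers none was called in either comparison (none of 6 had an unadjusted p below 0.05 untreated and 2 did after SRBC). The part of these cells in the results was not tested.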

How the data were processed

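Biotin-labelled RNA of sorted splenic cDC2 was hybridised to 10 one-colour arrays, 1 per sample. The authors deposited a linear intensity for each probe set, and array medians of 29.5 to 31.7 show that arrays had been brought to 1 level. Their normalization is not given by the sources used here. No value was missing for any of the 28853 probe sets.

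All work was on the log2 scale. GEO's platform annotation pairs 21789 probe sets with 1 gene symbol, 1621 with several and 5443 with none. A gene with several probe sets, as 2 members have, was read from the brightest on average, which left 19938 genes, none removed as dim. Of the measured members 43 were brighter than the median gene. A limma model of the 4 group means (eBayes with trend, on 6 residual plus 5.25 prior degrees of freedom) gave 5 two-sided comparisons, adjusted by Benjamini-Hochberg over all genes with a threshold of 0.05. In the fit used above each difference was taken within 1 probe set. Levels of different probe sets were compared only in brightness, to pick 1 per gene and to describe them. The number of arrays limits the precision.

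The members, the other gene lists and the motifs were chosen with earlier results of these data known, so lists are described by counts and medians, with no test of a list. All members could be named; of each other cell cycle list up to 4 genes, and of each of 13 marker lists up to 3, with the smallest p past the threshold, and 9 regulators whatever their p. Other genes named were picked with their values in view. Alternatives were the probe set, a filter on dim genes, quantile normalization, centring, the variance model, array weights, a pseudocount of 16, replicate number as a block, only the groups compared, a 2-fold minimum, and each array left out. Leaving out both arrays that stood apart, and all alternatives for genes other than members, were added after the data were seen. The scripts were tested on simulated data. Software was limma 3.58.1 (R 4.3.3) for the fits, then pandas 2.3.3 and NumPy 2.4.6 (Python 3.11.15) for tables and matplotlib 3.10.9 for plots.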

Additional observations from a re-analysis of the deposited data

How the results depend on the processing

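Between untreated genotypes 22 members were called, and between 2 and 30 when 1 array was left out; the other alternatives gave 21 to 33, and the median of -0.85 ranged from -1.20 to -0.72 with 1 array left out. After SRBC 9 were called, 4 to 13 with 1 array left out, 14 with only genes above the median level (43 members tested), 14 with quantile normalization and 3 at a change of at least 2-fold. In the WT response 1 was called, 0 to 6 with 1 array left out, 2 with only genes above the median level, 10 with array weights, 3 with a pseudocount of 16, 0 with only the groups compared, 0 at a change of at least 2-fold and 15 without both arrays that stood apart. In the Notch2KO response none was called under any alternative run; its median of 0.01 turned to -0.22 without Notch2KO untreated 1 and was 0.21 without Notch2KO untreated 2. The interaction called none except without both arrays that stood apart (5 higher), and its median of 0.43 ranged from 0.14 to 0.60 with 1 array left out. Calls over all genes rose in some of these fits as well. In the WT response they were 3.79% in the fit used above and 6.68% without WT SRBC 1. They were 9.46% with array weights and 11.5% without both arrays that stood apart. Without those arrays they were 10% untreated, 11.9% after SRBC and 3.03% in the interaction. The fit used above gave 5.11%, 5.32% and 0.0201%. The causes were not tested. Where 1 array was left in a group, it was assumed to vary like the others.

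With the replicate number as a block, 23 members were called untreated, 13 after SRBC, 1 in the WT response, 0 in the Notch2KO response and 0 in the interaction. Deviations of same-numbered arrays correlated at -0.17 to 0.38 over all genes, so the numbers were not taken to pair the arrays.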
